A study of Mus musculus with 4 samples.

Results

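Serotonin acts on cells through a family of receptors, and 8 genes of that family were examined in nuclear RNA of the mouse superior colliculus, the midbrain layered centre for vision and orienting. The 8 genes, Htr1a, Htr1b, Htr1d, Htr1f, Htr2a, Htr2c, Htr4 and Htr7, were taken by symbol from the 31053 genes of the deposited matrix, and all 8 symbols were present. Superior colliculus of C57BL/6J mice was collected at embryonic day 19 (E19) and postnatal days 4, 8 and 21 (P4, P8, P21), with no genetic change or treatment in any group. Each stage was 1 library of tissue pooled from several animals, so stages could be compared only as single libraries, without replicates, and no test was made. The sample label gives the first stage as E19, while the protocol text abbreviates it differently in 1 place, and the sample label was used. The labels do not say how many animals were pooled or their sex.

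All 8 proteins are receptors of the cell surface that signal through G proteins. Receptors of the first group (Htr1a, Htr1b, Htr1d, Htr1f) couple to inhibitory G proteins, lower cyclic AMP and often restrain release or firing. Receptors of the second group (Htr2a, Htr2c) couple to Gq and phospholipase C, which releases calcium from stores, while Htr4 and Htr7 couple to Gs and raise cyclic AMP. Serotonin reaches the colliculus from neurons of the raphe nuclei, whose cell bodies lie outside it.

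The libraries held 2585, 2386, 2504 and 2249 nuclei at E19, P4, P8 and P21, and 19277512, 23579145, 27436259 and 31325079 unique molecular identifiers (UMIs, which count captured RNA molecules). Of 9724 nuclei, 7552 were neurons in the authors' annotation, in 13 excitatory subtypes (EN1 to EN13) and 12 inhibitory subtypes (IN1 to IN12). The median depth of an excitatory nucleus was 8052 UMIs at E19 and 19601 at P21, and that of an inhibitory nucleus 6075 and 14009. Summed glutamate transporter markers (Slc17a6, Slc17a7, Slc17a8) measured 179 to 289 counts per 1000000 UMIs (CPM) in excitatory and 12.7 to 49.3 CPM in inhibitory neurons. Summed GABA markers (Gad1, Gad2, Slc32a1) measured 680 to 950 CPM in inhibitory and 34.6 to 58.6 CPM in excitatory neurons. The levels of both lists fit the class names. A total of 9 cell barcodes occurred in more than 1 library.

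The loci of the receptors were read from GENCODE M21 on GRCm38 (mm10), the build of the deposited data. Htr1a (chr13:105443639-105448122, plus strand) is a single exon of 4.48 kb, and Htr1b (chr9:81628291-81633828, minus) spans 5.54 kb and overlaps the antisense gene D430036J16Rik. Htr1d (chr4:136423524-136444398, plus) spans 20.9 kb, Htr1f (chr16:64924729-65105854, minus) 181 kb, Htr2a (chr14:74640840-74709494, plus) 68.7 kb and Htr7 (chr19:35958734-36057507, minus) 98.8 kb. Htr2c (chrX:146962513-147197277, plus) spans 235 kb and carries 7 microRNA genes and Snora35 on its own strand, none of them in the matrix. Htr4 spans 172 kb. Exons fill 100% of Htr1a and 85.3% of Htr1b but 1.42% of Htr1f and 3.97% of Htr2c. Intronic reads of unspliced RNA were counted, and the 2 compact genes have few or no intronic bases. Whether gene length bears on the counts was not tested.

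The promoter windows shown are those of the 2 receptors whose level was past 2-fold higher at P21 than at E19 in both neuron classes, Htr2c and Htr1f, and of Htr1d, which was higher in excitatory neurons in all 4 libraries. Each holds the 150 bases before the gene's start in RefSeq (GRCm38.p6), 5′ to 3′ on the gene's strand, and capitals mark a GC box. The Htr2c window lies at chrX:146962314-146962463 (plus), that of Htr1f at chr16:65105855-65106004 (minus) and that of Htr1d at chr4:136423372-136423521 (plus).
Htr2c: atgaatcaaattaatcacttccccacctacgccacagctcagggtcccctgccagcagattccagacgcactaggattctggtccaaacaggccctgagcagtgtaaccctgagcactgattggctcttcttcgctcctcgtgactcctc
Htr1f: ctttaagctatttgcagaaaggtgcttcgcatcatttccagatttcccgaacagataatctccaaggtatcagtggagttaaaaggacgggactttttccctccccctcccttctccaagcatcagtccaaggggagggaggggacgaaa
Htr1d: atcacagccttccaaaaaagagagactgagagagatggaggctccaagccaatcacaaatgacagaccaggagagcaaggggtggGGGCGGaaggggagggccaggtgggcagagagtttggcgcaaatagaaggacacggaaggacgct
These windows were searched on both strands for a TATA box (TATAAA), the core of a cyclic AMP response element (TGACG) and a GC box (GGGCGG), 3 motifs whose letters do not overlap each other. Over 32851 RefSeq promoters, 7.57%, 13.3% and 28.6% of windows of the same length held them. The only match was the GC box of Htr1d. GC content was 54% for Htr2c, 48.7% for Htr1f and 56% for Htr1d, against a median of 54% over all promoters. Matches describe these letters and are not sites of binding.

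Htr2c, the Gq-coupled receptor with the most UMIs of the 8 genes (21063, 93.1% of them in neurons), was the receptor whose level differed most between stages. In excitatory neurons Htr2c measured 72.2, 155, 131 and 360 CPM at E19, P4, P8 and P21. In inhibitory neurons it measured 129 CPM, 204, 143 and 516. Both classes thus had their lowest level at E19 and their highest at P21, with P4 above P8 in these sums. Over the 10 excitatory subtypes with enough nuclei at both stages, weighted alike, the order turned, with 91.8 CPM at P4 and 125 CPM at P8. The P21 level was 4.98-fold the E19 level in excitatory neurons (95% counting interval 4.63 to 5.37) and 3.99-fold in inhibitory neurons (3.70 to 4.30). Most of the gain lay between P8 and P21, where Htr2c was 2.76-fold higher in excitatory and 3.60-fold higher in inhibitory neurons. Exact Poisson and conditional binomial intervals are used throughout, and they cover counting error only.

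**Figure D1:**
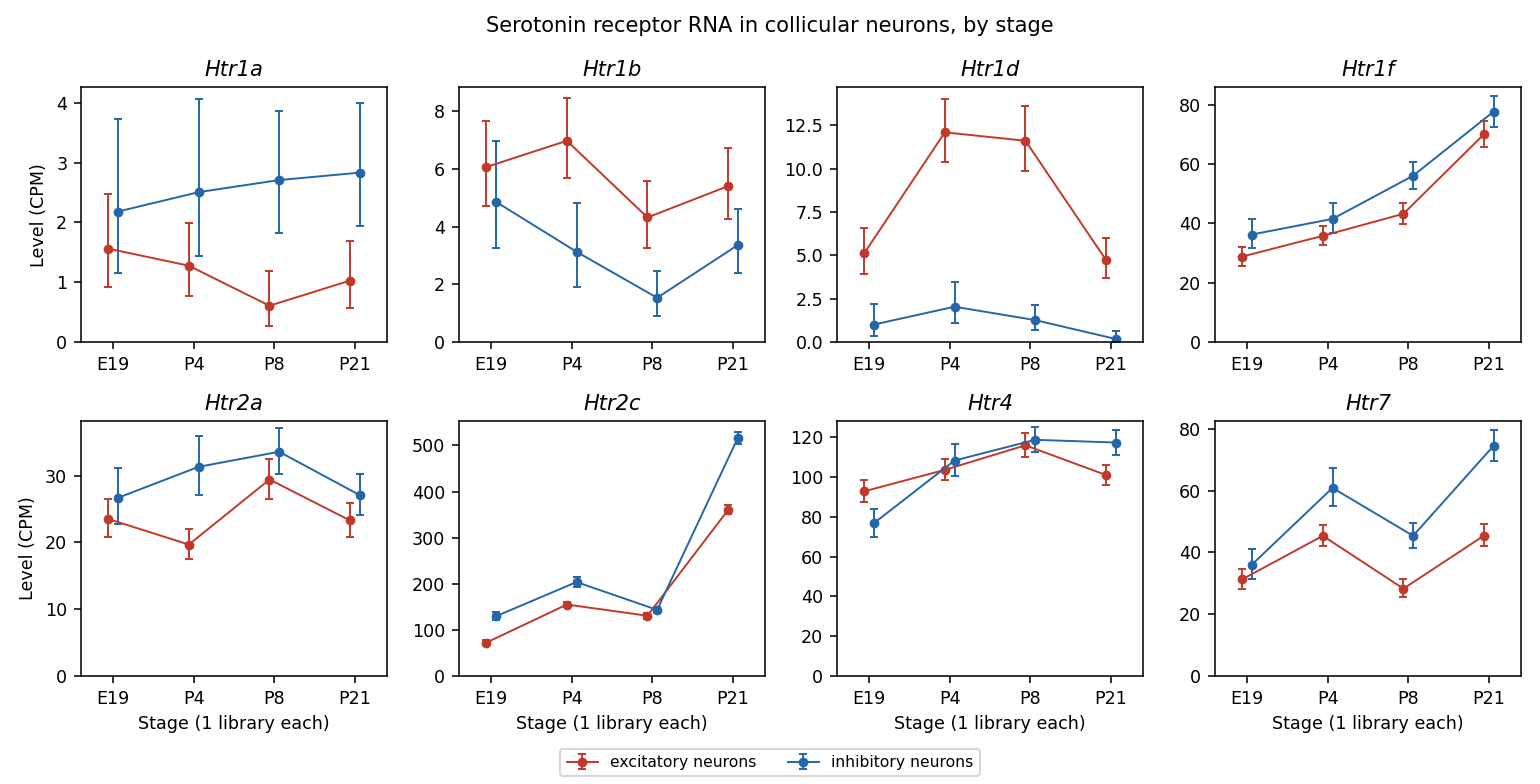
Level of each receptor gene (CPM, vertical axis from 0) against stage (1 library each) in excitatory (red) and inhibitory (blue) neurons; bars are 95% Poisson intervals for counting error. Htr2c reaches 360 and 516 CPM at P21, Htr1f climbs in each library in turn, and Htr1d is higher in excitatory neurons in all 4 libraries.

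A gene was called past 2-fold when the log2 ratio of its levels, with 5 CPM added to each, was at least 1 in size and its higher level at least 10 CPM. Between E19 and P21, 5 of the 8 receptors passed the filter in each class, and Htr1a, Htr1b and Htr1d did not. In excitatory neurons 2 of the 8 (Htr2c, log2 ratio 2.24, and Htr1f, 1.15) were past 2-fold higher and 0 past 2-fold lower, where 5.15% of all genes tested were higher and 10.4% lower. In inhibitory neurons the same 2 receptors (1.95 and 1.00) were past 2-fold higher and 0 lower, against 5.6% and 11.1% of genes. Across genes tested in both classes, 4.03% were past 2-fold higher in each and 8.62% lower in each. Scaling by the median of ratios moved the median log2 ratio of all genes in excitatory neurons by 0.10, and both receptors stayed past 2-fold.

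Over single steps Htr2c was the only receptor past 2-fold. From E19 to P4 this was so in excitatory neurons (log2 ratio 1.05), where 0.459% of genes were past 2-fold higher. From P8 to P21 it was so in excitatory neurons (1.43, against 2.12% of genes) and in inhibitory neurons (1.81, against 2.52%). For each other step and direction the count of receptors past 2-fold was 0. The shares of all genes there were 0.595% lower from E19 to P4, 0.319% higher and 0.712% lower from P4 to P8 and 3.13% lower from P8 to P21 in excitatory neurons. In inhibitory neurons they were 0.452% higher and 0.524% lower from E19 to P4, 0.116% higher and 0.347% lower from P4 to P8 and 3.15% lower from P8 to P21. EN7, a subtype of 33 nuclei at E19, 191 at P4 and 1 in each later library, made up 15.8% of excitatory neurons at P4. Without EN7 the log2 ratio of Htr2c from E19 to P4 was 1.13.

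Sums over a class mix its subtypes, whose shares differ between libraries, so the change was also read within subtypes of 30 or more nuclei. Htr2c was past 2-fold higher at P21 than at E19 in 19 of 19 such subtypes, with log2 ratios from 1.46 (IN2) to 5.36 (IN10) and a median of 3.11. Over all genes, 2.02% were past 2-fold higher and 4.39% lower in at least 3 in 4 of these subtypes, and no receptor was lower in so many. From P8 to P21 it was past 2-fold higher in 19 of 21 subtypes, against 0.768% of genes higher and 0.974% lower in at least 3 in 4 of them. The exceptions were EN9 (41.8 CPM at P8 and 56.7 at P21) and EN12 (27.2 and 23.7 CPM).

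**Figure D2:**
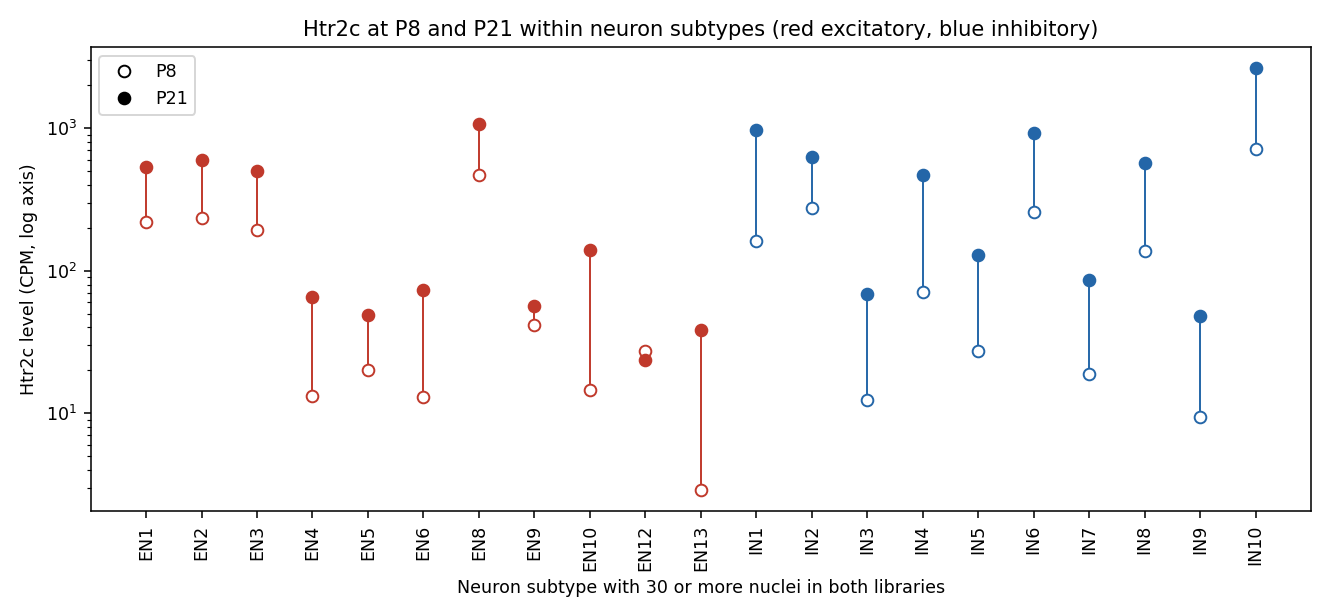
Htr2c level (CPM, log axis) at P8 (open circles) and P21 (filled circles) in each of the 21 neuron subtypes with 30 or more nuclei in both libraries, excitatory in red and inhibitory in blue. The P21 point lies above the P8 point in 20 subtypes, EN12 is the exception, and IN10 has the highest level, 2627 CPM at P21.

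The subtypes with the most Htr2c were IN10, EN8 and IN1, ranked by the mean over libraries with 30 or more nuclei. In IN10 the level was 59.1 CPM at E19, 717 at P8 and 2627 at P21 (the P4 library held only 25 IN10 nuclei). EN8 measured 73.8, 248, 471 and 1074 CPM at E19, P4, P8 and P21. Htr2c was detected in 46 of 46 EN8 nuclei and 31 of 36 IN10 nuclei at P21. Detection does not show how evenly the level was spread over these nuclei. IN1 measured 195, 252, 162 and 970 CPM in the same order, and 1 IN1 nucleus held 11% of the 1454 UMIs at P21. At the other end, IN9 averaged 19.2 CPM, with 0, 9.38 and 48.2 CPM at E19, P8 and P21.

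Across the 4 stages in order, 18.4%, 41.8%, 34.8% and 57.2% of excitatory nuclei had at least 1 Htr2c UMI. After thinning each nucleus to 2300 UMIs, which removed none, the shares were 7.92%, 19.7%, 14.6% and 29.3%. In inhibitory neurons the thinned shares were 10.8%, 16.5%, 14.6% and 35.8% (unthinned 19.9%, 30.9%, 30.9% and 58.6%). At equal depth the stages had the same order by detection as by level in both classes. Nuclei of other types had Htr2c UMIs too: at P21 the thinned share was 6.21% of 306 oligodendrocyte-lineage nuclei and 7.19% of 139 vascular leptomeningeal nuclei (18.6% and 16.5% unthinned). The neuron shares at P21 were above both, and the source of the UMIs in the other types was not tested.

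One group of nuclei outside the neurons held a large part of the Htr2c UMIs at P4. Astrocytes measured 1175 CPM in that library, but 1168 of their 1187 UMIs (98.4%) came from 6 nuclei annotated as fibrous astrocytes, each with 117 to 263 Htr2c UMIs. These 6 nuclei together held 500 UMIs of Ttr, the transthyretin gene that marks choroid plexus epithelium, and 4 UMIs over the 6 astrocyte markers Aqp4, Slc1a2, Slc1a3, Gja1, Aldh1l1 and Gfap. Each had 2 to 5 of the 5 choroid plexus markers (Ttr, Folr1, Kcnj13, Clic6, Otx2). The other 217 astrocytes of P4 had 19 Htr2c UMIs, or 19.6 CPM (11.8 to 30.5), and 2308 UMIs of the astrocyte markers. The 6 nuclei therefore go against their annotation on these markers, and the Htr2c level of P4 astrocytes rests on them. In the other libraries Htr2c in all non-neurons together was 12.2% (E19), 11.8% (P8) and 7.25% (P21) of its neuron level.

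**Figure D3:**
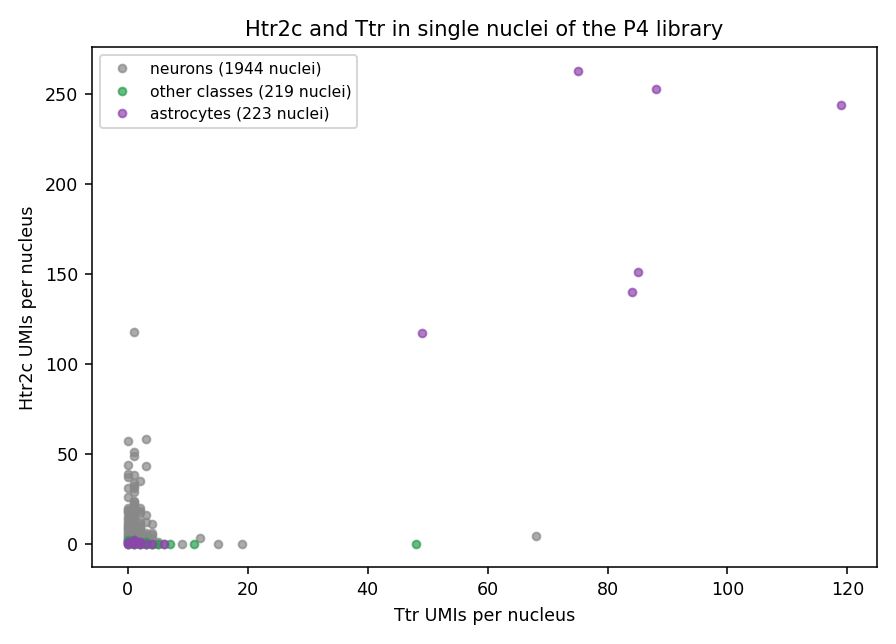
Htr2c UMIs (vertical axis) against Ttr UMIs (horizontal axis) in single nuclei of the P4 library, with neurons in grey, astrocytes in purple and other classes in green. The 6 astrocyte nuclei with 117 to 263 Htr2c UMIs have 49 to 119 Ttr UMIs each, apart from the other nuclei.

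Ttr was also the sign of a difference between whole libraries: its level in neurons was 79.5 CPM at P4 and 0.057, 0.37 and 1.04 CPM at E19, P8 and P21. In the P4 library 54.1% of excitatory and 53% of inhibitory nuclei had a Ttr UMI. Without those nuclei the P4 level of Htr2c was 171 CPM in excitatory neurons and 142 CPM in inhibitory neurons, in place of 155 and 204. A single IN2 nucleus with 118 UMIs held 9.07% of the inhibitory Htr2c UMIs at P4, and the level without it was 186 CPM. It had 1 Ttr UMI, so it was also among the nuclei left out above. The 142 CPM stood beside 143 CPM at P8, so the higher inhibitory level at P4 was not seen in nuclei without a Ttr UMI. Whether the nuclei left out differed in depth or subtype, and their part in the result, was not tested.

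Htr2a, the other Gq-coupled receptor and a target of serotonergic hallucinogens, was past 2-fold in neither class over any step. Excitatory neurons measured 23.5, 19.7, 29.4 and 23.3 CPM at E19, P4, P8 and P21, and inhibitory neurons 26.7, 31.3, 33.6 and 27.1 CPM. The P21 level was 0.991-fold the E19 level in excitatory neurons (0.842 to 1.17) and 1.02-fold in inhibitory neurons (0.835 to 1.24). Subtypes differed more than stages did. IN4 had the highest Htr2a level in each of the 4 libraries among the 17 subtypes with 30 or more nuclei in all of them, at 54.7, 95.3, 140 and 72.3 CPM (mean 90.6 ± 36.9, SD over 4 libraries). IN6 followed at 53.1 to 67.6 CPM (61.8 ± 6.33), and IN10, which is not among the 17, averaged 60.3 CPM over 3 libraries and was above IN4 at E19 (88.6 CPM on 18 UMIs). At E19 the difference between IN4 and IN6 was 54.7 against 53.1 CPM on 19 and 16 UMIs, within counting error. IN7 stood lowest, with 0 UMIs in 30 and 35 nuclei at E19 and P4 and 2 UMIs in each later library.

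Among non-neurons, Htr2a had 0, 6, 12 and 3 UMIs in endothelial cells at E19, P4, P8 and P21, from 12 to 22 nuclei a library. These are 26.2 CPM (9.61 to 57.0) at P4, 61.8 (31.9 to 108) at P8 and 40.7 (8.39 to 119) at P21. The 12 UMIs of P8 came from 3 of 15 nuclei, and after thinning 0 of 15 nuclei at P8 and 0 of 22 at P4 had one.

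Htr4, a Gs-coupled receptor, had the second largest UMI total (9508, 99% in neurons) and was past 2-fold in neither class over any step. From E19 to P21 excitatory neurons measured 92.9, 104, 116 and 101 CPM. Inhibitory neurons measured 76.8, 108, 119 and 117 CPM. In inhibitory neurons the P21 level was 1.53-fold that at E19 (1.37 to 1.70), and in excitatory neurons 1.09-fold (1.01 to 1.18). Thinned to 2300 UMIs, the share of nuclei with an Htr4 UMI was 17.2%, 18.7%, 20.2% and 17.7% in excitatory neurons and 14.3%, 18%, 19.1% and 21.5% in inhibitory neurons, where unthinned shares ran from 38.2% to 57.8% and from 28.8% to 61.5%. In oligodendrocyte-lineage nuclei at P21 the thinned share was 1.63% (3.92% unthinned).

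IN7 was the highest subtype for Htr4 in each of the 4 libraries among the 17, at 172, 164, 258 and 221 CPM (204 ± 44.3, SD over 4 libraries), and 55 of its 64 nuclei had a UMI at P21. IN7 was thus at the top of these 17 for Htr4 and at the bottom for Htr2a. EN13, which is not among the 17, had the highest mean, 242 CPM over 2 libraries (252 CPM at P8 and 231 CPM at P21). EN4 measured 105, 154, 176 and 209 CPM from E19 to P21. The lowest subtype by mean was EN6, at 4.96 to 24.3 CPM. Of the 8 receptors, all of which were tested, 2 (Htr2a and Htr4) had the same highest subtype in all 4 libraries, against 4.2% of genes.

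**Figure D4:**
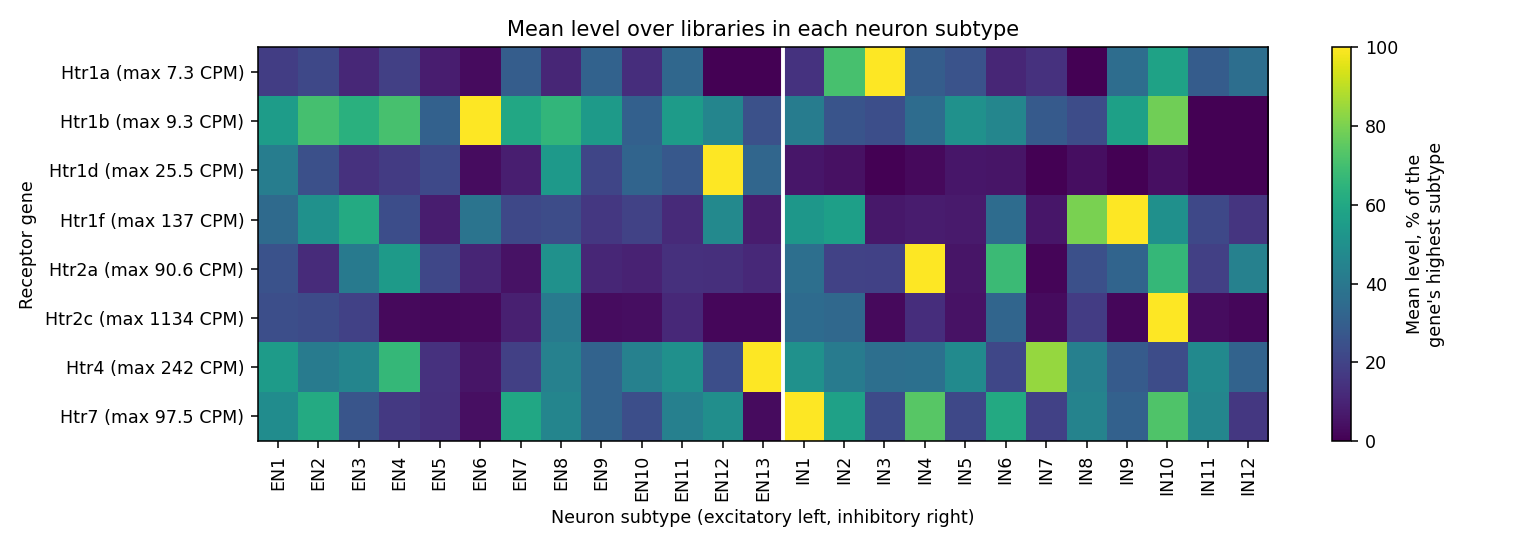
Mean level over libraries with 30 or more nuclei of each receptor (vertical axis) in each neuron subtype (horizontal axis, excitatory left of the white line), as a percentage of the gene's highest subtype, whose level in CPM stands beside the gene. Each receptor peaks in a subtype of its own, with Htr2c highest in IN10, Htr2a in IN4, Htr7 in IN1 and Htr1d in EN12.

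Htr7, the second Gs-coupled receptor, measured 31.3, 45.4, 28.3 and 45.5 CPM at E19, P4, P8 and P21 in excitatory neurons. Inhibitory neurons measured 36.1, 60.9, 45.4 and 74.6 CPM. Both classes were higher at P4 and P21 than at the stage before. Without EN7 the excitatory level at P4 was 38.7 CPM. Over the 8 inhibitory subtypes with enough nuclei at P4 and P8, weighted alike, the order turned, with 46.6 CPM at P4 and 50.1 CPM at P8. Over the 10 excitatory subtypes it did not (31.8 and 28.9 CPM). The inhibitory level at P21 was 2.07-fold that at E19 (1.78 to 2.41), and with 5 CPM added the log2 ratio was 0.95, just short of the 2-fold rule. Within subtypes Htr7 was past 2-fold higher at P21 than at E19 in 14 of 19 and past 2-fold lower in 0. IN1 was the highest subtype at E19, P8 and P21 and averaged 97.5 ± 31.0 CPM (SD over 4 libraries: 59.3, 90.8, 106 and 133 CPM). IN4, the next, averaged 72.0 CPM and was above IN1 only at P4 (93.1 against 90.8 CPM, 42 and 219 UMIs). IN10 averaged 70.5 CPM over 3 libraries, from 14.8 CPM at E19 to 108 CPM at P21, and EN13 had the lowest mean, 2.90 CPM.

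Htr1f, a Gi-coupled receptor and the target of a migraine drug class, was the second receptor past 2-fold. Excitatory neurons measured 28.8, 35.8, 43.2 and 70.0 CPM at E19, P4, P8 and P21. In inhibitory neurons the levels were 36.2, 41.5, 56.0 and 77.7 CPM. Each library was higher than the one before in both classes, although the inhibitory step from E19 to P4 was within counting error (1.15-fold, 0.953 to 1.38), and no single step was past 2-fold. P21 was 2.43-fold E19 in excitatory neurons (2.15 to 2.76) and 2.14-fold in inhibitory neurons (1.85 to 2.50). The inhibitory value lay at the edge of the rule and fell short of it with 20 CPM added or with nuclei thinned, and the excitatory value fell short with 20 CPM added. Within subtypes Htr1f was past 2-fold higher in 10 of 19 and past 2-fold lower in 0.

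The subtype IN9 had the highest mean of Htr1f, 137 CPM over 3 libraries, with 6.49 CPM at E19 (1 UMI in 32 nuclei), 76.6 at P8 and 329 at P21 (157 UMIs, in 31 of 45 nuclei). IN9, without P4 in its mean, was in the top 3 for Htr1f only at P21. IN8 measured 53.3, 71.3, 139 and 175 CPM of Htr1f, and was in the top 3 in all 4 libraries, and EN3 measured 36.0, 54.2, 78.1 and 168 CPM. IN7 had the lowest mean, 8.09 CPM (0 to 15.4 CPM), close to that of IN3 (8.96 CPM), and was the lowest subtype only at P4.

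Htr1d, a Gi-coupled receptor often found on nerve terminals, was the one receptor on the excitatory side among those that passed the filter of 10 CPM. Excitatory neurons measured 5.12, 12.1, 11.6 and 4.72 CPM at E19, P4, P8 and P21. Inhibitory neurons measured 1.01, 2.04, 1.26 and 0.18 CPM, on 6, 13, 14 and 2 UMIs. The excitatory level was 5.08-fold the inhibitory one at E19 (2.20 to 14.4), 5.94-fold at P4 (3.39 to 11.4), 9.18-fold at P8 (5.31 to 17.2) and, on 2 inhibitory UMIs, 26.7-fold at P21 (7.12 to 225). In excitatory neurons the P4 level was 2.36-fold that at E19 and the P8 level 2.46-fold that at P21, both short of 2-fold with 5 CPM added (log2 ratios 0.76 and -0.77). EN12 had the highest mean, 25.5 CPM over 3 libraries (19.1, 31.2 and 26.1 CPM at P4, P8 and P21), and 16 of its 41 nuclei had a UMI at P21. In EN8 the level was 32.2, 12, 6.92 and 3.73 CPM at E19, P4, P8 and P21. The EN8 value at E19 rested on 17 UMIs, 7 of them in 1 nucleus. In EN1 the level was 5.54, 20.3, 14.4 and 2.93 CPM in the same order. EN8 thus had its highest level at E19 and EN1 at P4, while in EN12, which had too few nuclei at E19, P8 and P21 (31 and 32 UMIs) were within counting error.

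Htr1b, the other terminal receptor of the Gi group, had 444 UMIs in all. Excitatory neurons measured 6.07, 6.98, 4.32 and 5.41 CPM from E19 to P21 and inhibitory neurons 4.87, 3.13, 1.53 and 3.36 CPM, so excitatory neurons were higher in each library. At E19 the interval of this ratio included 1 (1.25-fold, 0.799 to 2), and at P8 the ratio was 2.82-fold (1.62 to 5.17). Its highest subtype means were 9.33 CPM in EN6, 7.30 in IN10 and 6.63 in EN4, on 1 to 16 UMIs per library where any was found. Reads of its antisense neighbour could not be told apart without knowing whether counting used strand.

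Htr1a, the autoreceptor of serotonin neurons and a Gi-coupled receptor of many target neurons, had the fewest UMIs, 166. Excitatory neurons measured 1.56, 1.28, 0.61 and 1.03 CPM and inhibitory neurons 2.18, 2.50, 2.71 and 2.83 CPM. The inhibitory level was higher in each library, and the interval of the ratio lay above 1 at P8 (4.46-fold, 2 to 11.3) and at P21 (2.76-fold, 1.45 to 5.48). IN3 averaged 7.31 CPM, IN2 5.19 and IN10 4.2, and IN8 had 0 UMIs in all 4 libraries. In non-neurons Htr1a was at 40.7% to 121% of its neuron level and Htr1b at 24.5% to 105%, so neither was set apart from the other cells in every library.

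Excitatory and inhibitory neurons of a library share dissection, capture and sequencing, so their ratio was read within each. Of the 6 receptors that passed the filter of 10 CPM, 1 (Htr1d) was higher in excitatory neurons in all 4 libraries and 4 (Htr1f, Htr2a, Htr2c, Htr7) higher in inhibitory neurons. Htr1d passed the filter only through its excitatory level at P4 and P8, so its place on the excitatory side is a description. Of all genes tested, 15.4% were on the excitatory and 30.9% on the inhibitory side, and with median-of-ratios scaling the split was 21.1% and 22.1%. Htr1f was no longer on the inhibitory side in all 4 libraries when subtypes were weighted alike or nuclei thinned. None of the 6 was past 2-fold in all 4 libraries with 5 CPM added, where 0.414% and 0.443% of genes were. Htr4 changed side, at 1.21-fold higher in excitatory neurons at E19 (1.08 to 1.35) and 1.16-fold higher in inhibitory neurons at P21 (1.08 to 1.25). Htr2c was 1.79-fold higher in inhibitory neurons at E19, 1.32-fold at P4, 1.10-fold at P8 and 1.43-fold at P21. Without the P4 nuclei that had a Ttr UMI its P4 level was 142 CPM for inhibitory against 171 CPM for excitatory neurons. With that cut, which also left out the IN2 nucleus of 118 Htr2c UMIs, the side turned in that library. Htr2c was then no longer on the inhibitory side in all 4 libraries. Whether the nuclei left out differed in depth or subtype was not tested. Htr7 was higher in inhibitory neurons 1.15-fold, 1.34-fold, 1.61-fold and 1.64-fold, and at E19 the interval included 1 (0.969 to 1.37). So did the interval of Htr1f at P4 (1.16-fold, 0.997 to 1.35). For Htr2a the interval of the ratio excluded 1 only at P4 (1.59-fold, 1.32 to 1.91). Without EN7 the excitatory Htr2a level at P4 was 23.7 CPM in place of 19.7, against 31.3 CPM in inhibitory neurons, so that difference was smaller.

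**Figure D5:**
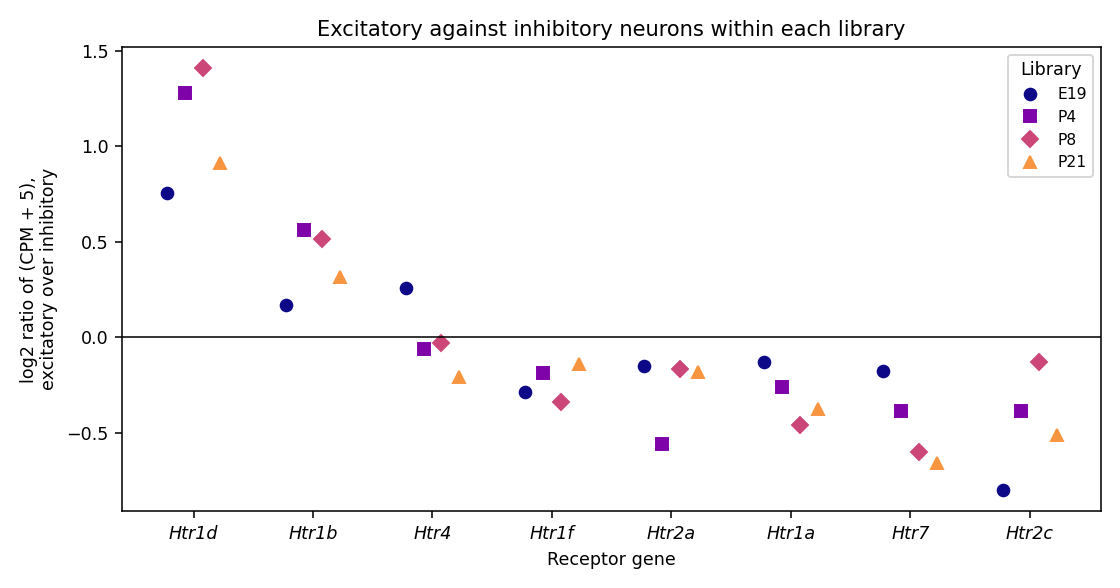
Log2 ratio of excitatory over inhibitory level, with 5 CPM added to each (vertical axis), for each receptor (horizontal axis) in the 4 libraries, shown by marker. All 4 points of Htr1d and Htr1b lie above 0, all 4 of Htr1f, Htr2a, Htr1a, Htr7 and Htr2c lie below it, and Htr4 has points on both sides.

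To set the receptors beside each other, levels were divided by gene length. At P21 excitatory neurons had 1.53 CPM per kb of Htr2c, 0.977 of Htr1b, 0.586 of Htr4, 0.460 of Htr7, 0.387 of Htr1f, 0.339 of Htr2a, 0.229 of Htr1a and 0.226 of Htr1d. The counting intervals of Htr1a and Htr1d overlapped, as did those of Htr2a and Htr1f. The interval of Htr1a (0.128 to 0.378) also overlapped those of Htr2a and Htr1f. In inhibitory neurons Htr2c was again first (2.20 CPM per kb), followed by Htr7 (0.755), Htr4 (0.681), Htr1a (0.631) and Htr1b (0.607), and Htr1d was last (0.0085). There Htr1a (0.432 to 0.891) and Htr1b (0.430 to 0.833) could not be ordered. Both intervals overlapped those of Htr7, Htr4, Htr1f and Htr2a, and those of Htr7 and Htr4 overlapped each other. On this scale the 2 compact genes stood among the other receptors, although their CPM were the lowest or near it. The scale takes capture to grow in proportion to gene length, which was not tested, so it does not rank the amounts of RNA.

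Nuclei often held more than 1 receptor. At equal depth, UMIs of at least 2 of the 8 genes were found in 6.13%, 11.6%, 11.1% and 15.8% of excitatory nuclei from E19 to P21. In inhibitory nuclei the shares were 7.05%, 10.8%, 10.2% and 21.9%. Of the 265 inhibitory nuclei of P21 with an Htr2c UMI after thinning, 17.7% (13.3% to 22.9%) had an Htr7 UMI, against 8.84% (6.45% to 11.8%) of the 475 without. At P8 the inhibitory shares were 13.8% (8.88% to 20.2%) and 6.67% (5.15% to 8.47%). At E19 and P4 in inhibitory neurons, and in excitatory neurons in all 4 libraries, the intervals overlapped (P21 excitatory: 10% and 6.02%). At P21 the share of inhibitory nuclei with an Htr4 UMI was 22.3% and 21.1% with and without an Htr2c UMI, and the intervals overlapped. For Htr1f the inhibitory shares at P8 were 14.5% (9.40% to 20.9%) with and 7.43% (5.82% to 9.31%) without an Htr2c UMI. At the other stages, and in excitatory neurons, the Htr1f intervals overlapped. Nuclei of all subtypes of a class were pooled for these shares, and whether the shares differ within subtypes was not tested.

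Over the 85 groups of 1 subtype in 1 library, Htr2c and Htr7 were also each other's most alike gene among 7062 genes, with a Pearson r of 0.70 between log levels. These groups share libraries, depth and stage, so the values are a description. Next for Htr2c came Stard9 (0.70) and Dgkg (0.69), and for Htr7 Dgkg (0.61) and Adgra1 (0.59). Among the genes most like Htr4 were Plcl1 (0.69) and Slc9a9 (0.65), and Htr2a was most like Sorcs3 (0.59), Il1rapl2 (0.59) and Carmil1 (0.59). For Htr1f the genes were 4933406I18Rik (0.60), Ampd3 (0.59) and Me3 (0.57), and those of Htr1d included Adgrb2 (0.62) and Elfn1 (0.62). Htr1b reached no more than 0.37 (Mdm2), and Htr1a, with fewer than 200 neuron UMIs, was not searched. Between receptors, Htr1f had an r of 0.52 with Htr2c and 0.47 with Htr7, whereas Htr2c and Htr1d had -0.01.

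Of 26 genes that carry the signal of these receptors (G protein subunits, adenylyl cyclases, phospholipases, potassium channels, arrestins and others), 25 passed the filter in excitatory and 24 in inhibitory neurons. In excitatory neurons 4 were past 2-fold higher at P21 than at E19 (Adcy2, Kcnj3, Kcnj9, Itpr1) and 2 past 2-fold lower (Gnai2, S100a10), where 5.15% and 10.4% of all genes were. In inhibitory neurons 4 were higher (Adcy8, Kcnj3, Kcnj9, Itpr1) and 0 lower, against 5.6% and 11.1% of genes. The median log2 ratios of the list were -0.10 and 0.04, and those of all genes -0.08 and -0.07. Itpr1, the calcium release channel downstream of Gq, measured 50.3 CPM at E19 and 236 at P21 in excitatory neurons and 64.4 and 299 CPM in inhibitory neurons. Kcnj9, a subunit of potassium channels opened by Gi-coupled receptors, measured 6.54 and 44.2 CPM in inhibitory neurons, and Adcy2, an adenylyl cyclase, 163 and 467 CPM in excitatory neurons. Gnai2, an inhibitory G protein subunit, measured 53.4 and 22.0 CPM in excitatory and 49.0 and 24.9 CPM in inhibitory neurons. S100a10, a partner of Htr1b and Htr4, measured 11.5 and 2.67 CPM in excitatory neurons, and Gna11, a Gq family subunit, 48.8 and 26.4 CPM in inhibitory neurons (log2 ratio -0.78).

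The other receptors of the family, Htr2b, Htr3a, Htr3b, Htr5a, Htr5b and Htr6, were all below 10 CPM in both classes at every stage, the highest being Htr6 at 3.34 CPM in inhibitory neurons at P8. Among the genes of serotonin neurons, Tph2, the brain enzyme of the first step, did not exceed 2.08 CPM, and Fev, the transcription factor of serotonin neurons, had 1 UMI in all neurons. Slc6a4, the serotonin transporter, and Slc18a2, the vesicle transporter of monoamines, were found mainly in EN7 at P4, which held 161 Slc6a4 UMIs (58.0 CPM) and 455 Slc18a2 UMIs (164 CPM). Those are 90.4% and 82.0% of the neuron UMIs of each gene in that library. Tph1, the synthesis enzyme best known from gut and pineal gland, had 80 UMIs in IN4 at P4 (177 CPM), or 72.7% of its neuron UMIs there, and 2, 6 and 0 UMIs in IN4 at E19, P8 and P21. IN4 was also the highest subtype for Htr2a. Of the 9 genes of serotonin metabolism only Maoa, the degrading enzyme, passed the filter between E19 and P21, with 35.2 and 19.0 CPM in excitatory neurons and 27.8 and 12.8 CPM in inhibitory neurons (log2 ratios -0.75 and -0.88).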

How the data were processed

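Per the labels, nuclei of pooled superior colliculus were captured with 10x Genomics chemistry; per the submitters' processing notes, reads were processed with Cell Ranger 3.0.2 on mm10, and per the labels on a pre-mRNA reference. The deposited matrix holds raw UMI counts, not normalised. Classes and subtypes are the authors' deposited annotation; how nuclei were filtered, doublets treated, and strand used is not given in the sources used here. Of the deposited table of nuclei, 9 columns were not used. No further filter or doublet caller was applied.

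The 8 genes, the gene lists and the rules were chosen with earlier results of these data known. Described were all 8 genes, their 3 highest subtypes, the other receptors, 9 metabolism genes, the 2 largest rises and falls of 26 coupling genes per class, and the 3 most alike genes of each receptor, of which 2 in all are not reported here; IN7 to IN9 at the low ends, EN7, endothelial cells, and the 6 nuclei rich in Htr2c were picked out once their values were known.

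UMIs were summed per library and class or subtype and scaled to CPM (Python 3.11.15, numpy 2.4.6, scipy 1.17.1, pandas 2.3.3). Log2 ratios add 5 CPM, which understates changes of low genes. Subtype values use groups of 30 or more nuclei. Likeness is Pearson's r of log2 values over genes with a mean of at least 20 CPM. Shares have exact Clopper-Pearson intervals. Settings were tested on simulated data, and alternatives are given in the closing section.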

Additional observations from a re-analysis of the deposited data

Results flagged for a closer look

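Within excitatory neurons, Htr2a and Htr4 moved past 2-fold in opposite directions between E19 and P21 in different subtypes, with counting intervals that excluded no change. These differences between subtypes were picked out by their values and were not tested, since each stage is 1 library. For Htr2a the log2 ratio of P21 over E19 was 1.99 in EN10 (0 UMIs at E19, 8 UMIs and 14.8 CPM at P21). In EN6 it was 2.43 (0 UMIs, then 23 UMIs and 22.0 CPM), and in EN1 -1.05 (32.1 and 12.9 CPM, on 162 and 44 UMIs). The lower bound of the fold was 1.001 in EN10 and 1.11 in EN6, close to no change. For Htr4 the log2 ratio was 1.61 in EN9 (36.6 and 122 CPM, on 8 and 103 UMIs). In EN5 it was -1.48 (48.7 and 14.2 CPM, on 14 and 16 UMIs).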

How the results depend on the processing

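No paired analysis was possible because each stage has 1 library, and for the same reason no replicate could be left out. With 20 CPM added in place of 5, 1 receptor (Htr2c) was past 2-fold higher from E19 to P21 in excitatory (2.14% of genes) and 1 (Htr2c) in inhibitory neurons (2.50%), which follows from the larger constant. After thinning, 1 (Htr2c) was so in inhibitory neurons (6.41% of genes); the cause was not tested. Without the filter on low values, 2 receptors (Htr1b and Htr1d) were on the excitatory side in all 4 libraries (10.9% of genes) and Htr1a joined the inhibitory side (5 receptors, 17.3% of genes), since more genes were tested. The other 49 recomputed counts of receptors were within 1.5 times of those reported. Of the recomputed single values, 166 stayed within their error or call and 91 moved beyond it, and none changed from past 2-fold in one direction to the other. Htr2c stayed past 2-fold under every alternative, with log2 ratios of 2.04 to 3.19 in excitatory and 1.84 to 3.21 in inhibitory neurons, and Htr1f ranged from 0.88 to 1.31 and from 0.80 to 1.96. The inhibitory log2 ratio of Htr7 ranged from 0.75 to 1.48 and passed 2-fold with 1 CPM added, with median-of-ratios scaling, and with nuclei or subtypes weighted alike. The excitatory log2 ratio of Htr7 ranged from 0.35 to 1.19 and was past 2-fold with subtypes weighted alike (1.19). With subtypes of 50 or more nuclei, 2 receptors (Htr1d and Htr2a) had a constant highest subtype (7% of genes), and Htr4 no longer did. IN7, the highest subtype for Htr4 in the main setting, had too few nuclei to be among the 8 subtypes compared there. Thinning moved all 64 shares of nuclei. Depth limits Htr1a, Htr1b and Htr1d most.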
